A study of Mus musculus with 8 samples.

Results

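Transcripts of 10 inflammatory cytokine receptor genes were compared between 2 clones of mouse CD4+ T cells, SAS and ANT. The genes were chosen by function, as the chains that bind interleukin-6 (Il6ra, Il6st), interleukin-12 (Il12rb1, Il12rb2), interleukin-18 (Il18r1, Il18rap), interferon gamma (Ifngr1, Ifngr2) and type I interferon (Ifnar1, Ifnar2). All 10 had a row among the 39056 genes of the deposited count table, and all 10 passed the filter on low counts, which left 12619 genes. The cells came from C57BL/6J mice given bone marrow progenitors of the genotype CD4-Cre TCRβtg Tcra-/-. These progenitors carry a T cell receptor (TCR) beta transgene and a Cre driven by the Cd4 promoter, which is active in T lineage cells, and lack their own TCR alpha chain. A retrovirus supplied the SAS or the ANT TCR alpha chain, so the clones share every other listed allele, and each clone stands for a single receptor. CD4+ T cells were sorted from spleen and lymph nodes combined. There were 4 SAS libraries (replicates 1, 2, 3 and 6) and 4 ANT libraries (replicates 1, 3, 4 and 5). The labels give no ages and do not say whether each library came from its own animal, so the p-values reflect only how these samples vary, which may be technical.

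The receptors of these cytokines are built from different chains. In the interleukin-12 and interferon receptors, bound cytokine brings the chains and their Janus kinases together, and the kinases activate STAT transcription factors. In the interleukin-6 receptor, Il6ra encodes the chain that binds the cytokine and Il6st the signalling chain. The interleukin-18 receptor belongs to the interleukin-1 receptor family and signals through the adaptor MyD88. In CD4+ T cells interleukin-12 and interleukin-18 are known for promoting interferon gamma production, interleukin-6 for supporting follicular helper and Th17 differentiation, and interferons for inducing a large set of antiviral and antigen presentation genes.

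Of the 10 receptor genes, 3 were higher in SAS (Il12rb1, Il6st and Ifnar2), 6 were lower in SAS (Il18r1, Ifngr1, Il12rb2, Il18rap, Il6ra and Ifngr2), and Ifnar1 did not pass the test. Differences were tested with edgeR's quasi-likelihood test, and a gene was called at a Benjamini-Hochberg adjusted p under 0.05. Differences between the clones were widespread, and 37.4% of all genes tested were called, 19.8% being higher in SAS and 17.7% lower. The 4 libraries of each clone did not overlap for 9 of the 10 receptor genes, against 38.1% of all genes tested. The median log2 fold change (LFC), SAS minus ANT, was −0.88 over the receptor genes and −0.0032 over all genes tested. Libraries held 27600959 to 31810799 counts. The marker genes Cd4 (907 ± 66.6 CPM in SAS, 936 ± 59.8 CPM in ANT) and Cd3e (507 ± 18.6 CPM in SAS, 515 ± 45.3 CPM in ANT) were abundant in both clones. Of the 10 CD4 T cell markers, which summed to 5220 to 5587 CPM in SAS and 5386 to 6275 CPM in ANT, Cd5 (LFC 1.67) and Cd28 (LFC 0.74) were called higher in SAS and Thy1 (LFC −1.89) and Trac (LFC −0.65) lower. CPM are counts per 1e6 of the scaled library size, given as mean ± SD (n = 4 libraries). The TCR alpha variable segment Trav9-4 stood at 28.4 ± 5.75 CPM in SAS against 0.296 ± 0.271 CPM in ANT, and the labels do not name the segment of either chain. The clones separated along the first principal component (73.7% of variance). The second (10.6%) set ANT replicates 1 and 3 (scores 25.0 and 26.6) apart from ANT replicates 4 and 5 (−25.1 and −31.3). It also spread the SAS libraries, from 23.6 in replicate 1 to −25.0 in replicate 2. In these sorted populations, fewer cells that express a gene and less RNA per cell cannot be told apart.

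**Figure D1:**
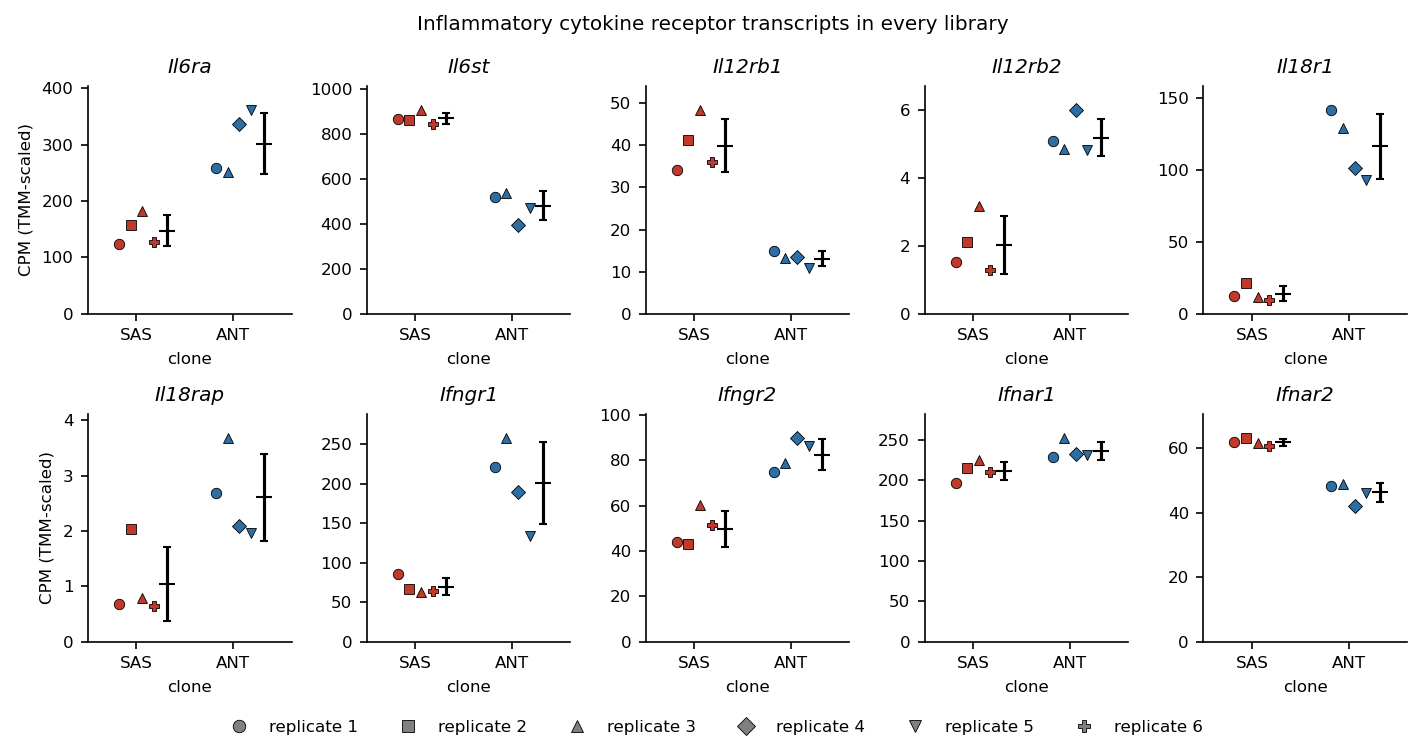
TMM-scaled CPM of the 10 receptor genes in every library, with SAS (red) left of ANT (blue) and the mean and SD (n = 4) beside the points. Point shape marks the replicate number; Il18rap is the gene whose clones overlap, with SAS replicate 2 at 2.03 CPM and ANT replicate 5 at 1.97 CPM.

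The interleukin-18 receptor had the largest difference of the 10. Il18r1 (ENSMUSG00000026070.15, chromosome 1, 40465552 to 40500854, plus strand, mm10) encodes the ligand-binding alpha chain. Its level was 12.5, 21.7, 11.8 and 9.93 CPM in SAS replicates 1, 2, 3 and 6, against 142, 129, 102 and 93.3 CPM in ANT replicates 1, 3, 4 and 5. Every SAS library lay far below every ANT library, and within SAS replicate 2 was the highest. The LFC was −3.06 (SE 0.25, adjusted p 7.99e-06), or 8.35-fold lower in SAS. Of all genes tested, 3.84% had a larger absolute LFC. Il18rap (chromosome 1, 40515362 to 40551705), the accessory chain needed for signalling, lies next to Il18r1 and was scarce in both clones. It stood at 0.67, 2.03, 0.794 and 0.643 CPM in SAS, against 2.69, 3.68, 2.09 and 1.97 CPM in ANT. SAS replicate 2, the library with the most Il18r1, again stood above the other SAS libraries and above ANT replicate 5. The LFC of Il18rap was −1.33 (SE 0.41, adjusted p 0.0259), and it rested on 123 counts in SAS and 293 in ANT. The call was lost when SAS replicate 1, 3 or 6 or ANT replicate 3 was left out (adjusted p 0.067, 0.0729, 0.0707 and 0.0675), and without both ANT replicates 1 and 3 (0.146).

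The starts of Il18r1 and Il18rap are shown because the genes adjoin each other and both were lower in SAS, and those of Il12rb2 and Il6st because they moved in opposite directions. Each sequence runs 5′ to 3′ from 250 bases before a RefSeq transcript start to 50 bases from it (RefSeq, GRCm38.p6), and capitals mark every match to a motif searched. The windows are chr1:40465302-40465601 (plus strand) for Il18r1, chr1:40515112-40515411 (plus strand) for Il18rap, chr6:67376139-67376438 (minus strand) for Il12rb2 and chr13:112463820-112464119 (plus strand) for Il6st.
Il18r1: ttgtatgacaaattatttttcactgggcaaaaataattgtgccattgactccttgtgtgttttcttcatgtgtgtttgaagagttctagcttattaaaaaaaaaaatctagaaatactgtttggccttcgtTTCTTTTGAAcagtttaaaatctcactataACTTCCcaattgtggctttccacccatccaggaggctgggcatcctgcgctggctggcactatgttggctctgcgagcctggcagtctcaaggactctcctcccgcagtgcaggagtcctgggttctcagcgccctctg
Il18rap: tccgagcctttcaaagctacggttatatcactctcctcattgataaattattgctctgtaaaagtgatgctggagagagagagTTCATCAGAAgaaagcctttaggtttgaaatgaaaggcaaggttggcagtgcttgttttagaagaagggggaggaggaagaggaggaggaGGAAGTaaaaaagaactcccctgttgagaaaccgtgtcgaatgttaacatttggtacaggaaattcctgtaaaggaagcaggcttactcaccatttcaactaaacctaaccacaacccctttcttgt
Il12rb2: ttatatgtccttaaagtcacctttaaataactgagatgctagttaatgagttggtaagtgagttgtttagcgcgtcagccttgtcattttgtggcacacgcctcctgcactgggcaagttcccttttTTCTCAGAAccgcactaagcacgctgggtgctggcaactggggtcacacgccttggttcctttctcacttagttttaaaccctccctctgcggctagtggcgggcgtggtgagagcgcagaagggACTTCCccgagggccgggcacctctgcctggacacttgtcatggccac
Il6st: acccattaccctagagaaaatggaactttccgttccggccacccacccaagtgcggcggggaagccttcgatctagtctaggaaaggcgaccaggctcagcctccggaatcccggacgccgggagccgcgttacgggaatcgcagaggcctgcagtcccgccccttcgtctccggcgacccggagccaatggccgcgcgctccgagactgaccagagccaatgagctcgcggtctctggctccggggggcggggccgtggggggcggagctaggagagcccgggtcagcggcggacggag
On both strands, 6 motifs were searched: TTCNNNGAA and its form with 1 more base between TTC and GAA, spaced palindromes of STAT factors, the interferon-stimulated element core (2 GAAA repeats spaced by 2 bases), TGACTCA (AP-1), GGAAGT (ETS factors) and CACGTG (the E-box). The Il18r1 and Il18rap windows each held the wider palindrome, which 6.95% of the 32851 promoters in the table hold, and GGAAGT or its reverse complement, held by 23.8%. In Il18r1 these matches were at bases 132 to 141 and 162 to 167 of the window, and in Il18rap at bases 84 to 93 and 174 to 179. The Il12rb2 window held TTCNNNGAA at bases 128 to 136 (8.3% of promoters hold it) and GGAAGT in reverse at bases 253 to 258, and the Il6st window held none of the 6. Among receptor windows not shown, those of Ifnar2, higher in SAS, and Ifnar1, not called, also held TTCNNNGAA. The Ifngr2 window held the wider palindrome, and those of Ifngr1 and Il6ra, both lower in SAS, held neither palindrome. RefSeq lists 3 starts for Il18r1, and the window of the third held TTCNNNGAA at 2 places. GC content was 44.7% for Il18r1 and 42.3% for Il18rap, with 5 and 4 CpG dinucleotides, and 68.3% for Il6st with 33, against a median GC content of 52.7% over all promoters. None of the 9 receptor genes with a promoter in the table held the interferon-stimulated core or TGACTCA in its window, and 3.44% and 5.2% of all promoters do. A match describes the letters of a window and is not evidence of binding.

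The chains of the interleukin-12 receptor moved in opposite directions. Il12rb1 (ENSMUSG00000000791.9, chromosome 8, 70808449 to 70821424, plus strand) encodes the chain shared with the interleukin-23 receptor. It was at 34.2, 41.2, 48.2 and 35.9 CPM in SAS, against 14.97, 13.3, 13.4 and 10.8 CPM in ANT, with no overlap and SAS replicate 3 highest. Its LFC of 1.604 (SE 0.15, adjusted p 1.73e-05), or 3.04-fold, was the largest rise among the receptor genes. Il12rb2 (ENSMUSG00000018341.12, chromosome 6, 67291318 to 67376188, minus strand) encodes the chain specific to interleukin-12, whose signalling runs through STAT4. Il12rb2 was near the lower end of detection, at 1.52, 2.10, 3.18 and 1.28 CPM in SAS and 5.07, 4.85, 5.98 and 4.83 CPM in ANT. The ANT libraries all lay above the SAS libraries, and the LFC was −1.36 (SE 0.28, adjusted p 0.00325). The exons of Il12rb2 overlap those of Serbp1, an RNA-binding protein gene on the opposite strand, over 1519 of their 3794 bases. Serbp1 had 83842 counts in SAS and 67182 in ANT, where Il12rb2 had 242 in SAS and 585 in ANT. Because the strand setting of the counting is not given in the sources used here, reads in the shared bases may be missing from Il12rb2 or belong to Serbp1. Serbp1 itself had an LFC of 0.21 (adjusted p 0.281), opposite in sign to that of Il12rb2. Il23r, the partner of Il12rb1 in the interleukin-23 receptor, had 1 count in SAS and 2 in ANT over 4 libraries each.

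The chains of the interleukin-6 receptor also moved in opposite directions. Il6ra (ENSMUSG00000027947.11, chromosome 3, 89864059 to 89913196, minus strand) encodes the chain that binds interleukin-6. Its level was 123, 157, 182 and 126 CPM in SAS, against 259, 252, 336 and 361 CPM in ANT. The clones did not overlap, and ANT replicates 4 and 5 stood above ANT replicates 1 and 3. The LFC was −1.04 (SE 0.17, adjusted p 0.000723). An antisense gene, Gm42809, shares 242 exonic bases with Il6ra and was not analysed here. Il6st (ENSMUSG00000021756.12, chromosome 13, 112464070 to 112510086, plus strand) encodes gp130, the signalling chain that the interleukin-6 receptor shares with those of interleukin-27, interleukin-11 and others. It was the most abundant receptor transcript of the set in SAS, at 867, 860, 905 and 845 CPM, against 522, 536, 394 and 470 CPM in ANT. The SAS libraries lay close together, all above ANT, and the LFC was 0.86 (SE 0.12, adjusted p 0.000251), or 1.81-fold. Il27ra, the interleukin-27 chain that also pairs with gp130, was at 280 ± 27.9 CPM in SAS against 301 ± 23.7 CPM in ANT, with an LFC of −0.10 (SE 0.11, adjusted p 0.488) that did not pass the test.

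Both chains of the interferon gamma receptor were lower in SAS. Ifngr1 (ENSMUSG00000020009.12, chromosome 10, 19591949 to 19610229, plus strand), the ligand-binding chain, stood at 85.8, 66.4, 63.1 and 63.5 CPM in SAS, against 222, 258, 190 and 134 CPM in ANT. SAS replicate 1 stood above the other SAS libraries and below all ANT libraries. The LFC was −1.53 (SE 0.19, adjusted p 0.000152), or 2.88-fold lower in SAS. Ifngr2 (ENSMUSG00000022965.7, chromosome 16, 91547072 to 91565623, plus strand), the accessory chain, whose level is known to govern interferon gamma responsiveness of T cells, was at 44.0, 42.9, 60.1 and 51.5 CPM in SAS and 74.7, 78.8, 89.7 and 86.3 CPM in ANT. All SAS libraries lay below all ANT libraries. Its LFC of −0.73 (SE 0.13, adjusted p 0.0012) was smaller than that of Ifngr1.

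The type I interferon receptor differed little. Ifnar1 (ENSMUSG00000022967.12, chromosome 16, 91485238 to 91507441, plus strand), whose product binds the kinase Tyk2, was at 197, 215, 225 and 210 CPM in SAS and 228, 252, 233 and 231 CPM in ANT. The libraries of the clones separated by a narrow gap. The LFC of −0.16 (SE 0.09, adjusted p 0.182) did not pass the test, nor did it under any of 18 alternative settings (adjusted p 0.0954 to 0.623). Ifnar2 (ENSMUSG00000022971.18, chromosome 16, 91372783 to 91405589, plus strand), which binds interferon with high affinity and in mice is made in transmembrane and soluble forms, was at 62.1, 63.1, 61.7 and 60.6 CPM in SAS against 48.2, 48.9, 42.2 and 46.1 CPM in ANT. The SAS libraries were all higher and nearly equal to each other. The LFC was 0.42 (SE 0.09, adjusted p 0.00395), the smallest among the called receptor genes. Gm21970, which shares 315 exonic bases with Ifnar2 on the same strand, had 0 counts. Gene counts do not separate the transmembrane from the soluble transcript. Il10rb, a class II receptor gene that lies between Ifnar2 and Ifnar1 on chromosome 16, was at 25.2 ± 1.83 CPM in SAS against 27.9 ± 1.75 CPM in ANT (LFC −0.15, adjusted p 0.272).

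**Figure D2:**
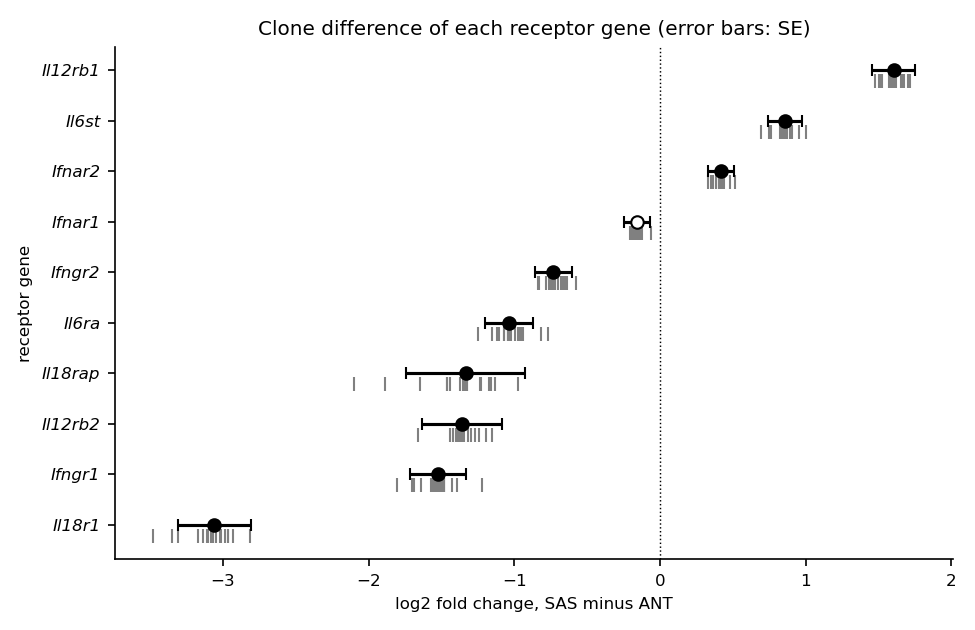
LFC, SAS minus ANT, of each receptor gene with its SE from edgeR (circles, filled where called). Grey ticks under each circle are the values under 18 alternative settings; they spread most for Il18rap, between −2.10 and −0.98, and none crosses 0.

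Because partner chains act together, the count ratio of each pair was taken within every library, where it does not depend on how libraries are scaled. The test was an exact two-sided permutation test over libraries, whose smallest possible p with 4 against 4 is 0.0286, and 5 ratios were adjusted together. Il12rb2 had 0.0446, 0.051, 0.0658 and 0.0358 counts for each Il12rb1 count in SAS, against 0.339, 0.365, 0.446 and 0.447 in ANT. This was the largest shift of the 5, a log2 difference of −3.04 (exact permutation p 0.0286, 0.0357 adjusted over 5 ratios). Il6ra had 0.142 to 0.201 counts for each Il6st count in SAS and 0.47 to 0.854 in ANT, a log2 difference of −1.90 with the same p and adjusted p. In ANT this ratio stood higher in replicates 4 and 5 (0.854 and 0.767) than in replicates 1 and 3 (0.497 and 0.47). Il18r1 had 10.7 to 18.7 counts for each Il18rap count in SAS and 35.2 to 52.6 in ANT, a log2 difference of −1.64 with the same p. Ifnar1 had 3.17 to 3.65 counts for each Ifnar2 count in SAS and 4.74 to 5.52 in ANT, a log2 difference of −0.58 with the same p. These 4 ratios separated the clones without overlap. The ratio of Ifngr1 to Ifngr2 did not, with 1.05 to 1.95 in SAS and 1.56 to 3.27 in ANT (log2 difference −0.76, exact permutation p 0.0571, also 0.0571 adjusted). The numerator of each ratio was chosen with the results known, so a sign common to the ratios is no result.

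**Figure D3:**
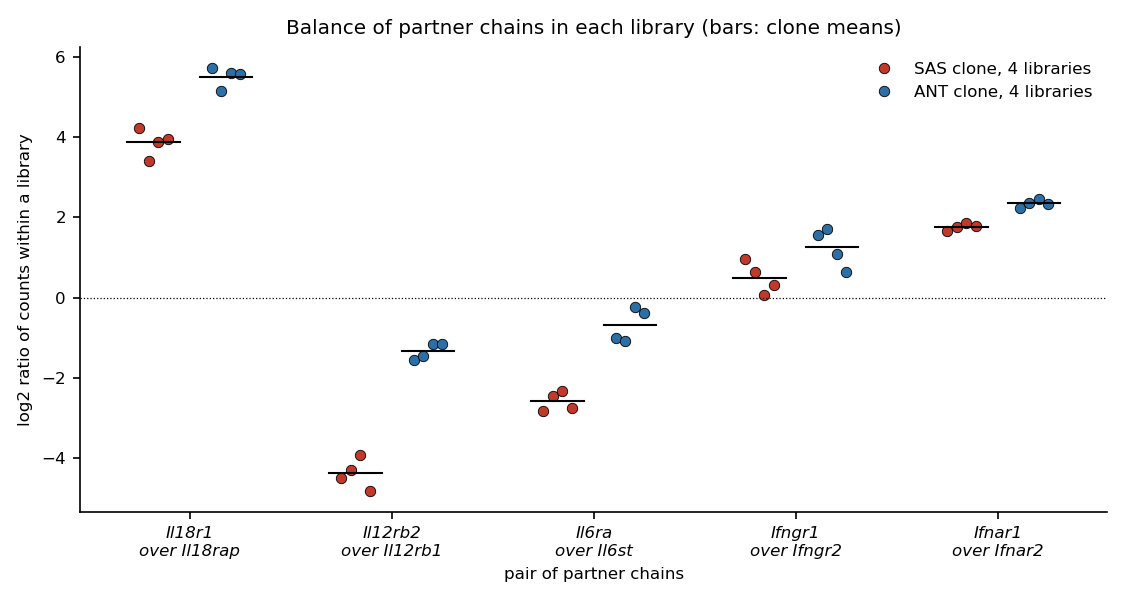
Log2 ratio of the counts of partner chains within each library, with SAS (red) left of ANT (blue) for each pair and bars at the clone means. The Il12rb2 to Il12rb1 ratio averages −4.38 in SAS and −1.34 in ANT, and the Ifngr1 to Ifngr2 ratio is the pair whose clones overlap.

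Levels of different genes were compared per length, as CPM per kb of merged exons, and given as mean ± SD (n = 4). In SAS the order ran from Il6st (78.3 ± 2.31) through Ifnar1 (35.6 ± 1.96), Ifngr1 (24.5 ± 3.80), Ifnar2 (18.6 ± 0.309), Il6ra (17.0 ± 3.20), Ifngr2 (13.2 ± 2.11) and Il12rb1 (9.72 ± 1.54) to Il18r1 (2.90 ± 1.09), Il12rb2 (0.533 ± 0.222) and Il18rap (0.153 ± 0.0991). Neighbours from Ifnar2 to Il12rb1 overlapped in their library ranges, and the others did not. In ANT the order ran from Ifngr1 (70.6 ± 18.4) through Il6st (43.3 ± 5.78), Ifnar1 (39.8 ± 1.85), Il6ra (35.0 ± 6.34), Il18r1 (24.2 ± 4.72), Ifngr2 (21.9 ± 1.82) and Ifnar2 (13.9 ± 0.903) to Il12rb1 (3.20 ± 0.421), Il12rb2 (1.37 ± 0.144) and Il18rap (0.386 ± 0.116). There neighbours from Ifngr1 to Ifngr2 overlapped in their library ranges, and those from Ifngr2 down did not. Il18rap was the scarcest chain and Il12rb2 the next in both clones. Per length, Il6ra stood at 0.183 to 0.258 of the Il6st level in SAS libraries and at 0.603 to 1.10 of it in ANT libraries. The exon length counts every annotated exon, so these levels understate a gene of which cells use a short transcript.

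**Figure D4:**
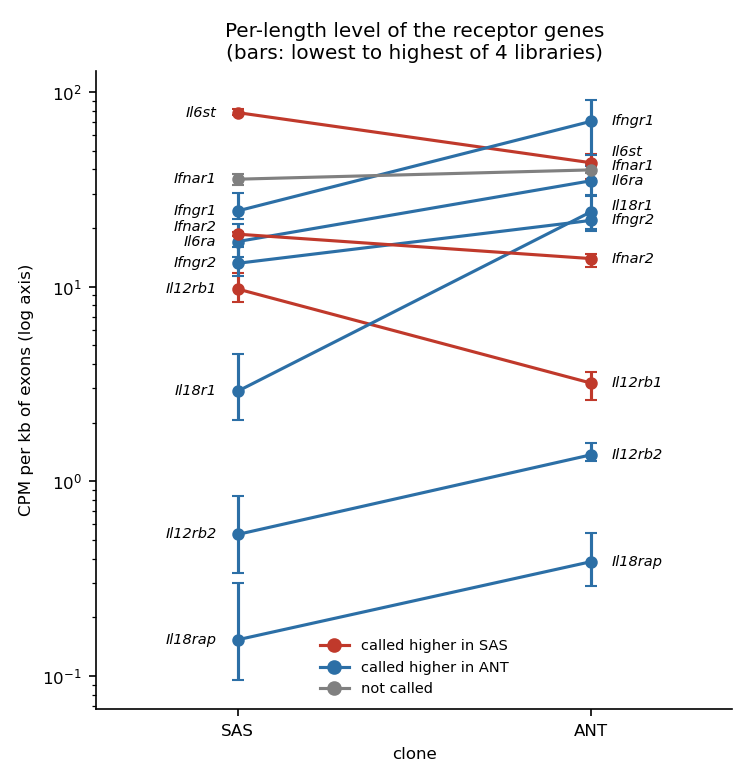
Per-length level of the 10 receptor genes (CPM per kb of exons, log axis) in SAS on the left and ANT on the right; points are means and bars run from the lowest to the highest of 4 libraries. Il18r1, at 2.90 in SAS and 24.2 in ANT, lies below Ifnar2 and Il12rb1 in SAS and above them in ANT; its ANT range overlaps that of Ifngr2.

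The genes that act beside and below the receptors were counted by list. Of all genes tested, 37.4% were called, 19.8% being higher in SAS and 17.7% lower. Of the Janus kinases, which bind signalling chains, 3 of 4 were higher in SAS, and edgeR, DESeq2 and limma-voom each called 0 lower, with 0 at an unadjusted p under 0.05. Jak2, the kinase of the interferon gamma and interleukin-12 receptors among others, stood at 493, 413, 482 and 484 CPM in SAS against 181, 167, 198 and 209 CPM in ANT (LFC 1.31, SE 0.11, adjusted p 8.69e-06). Jak3 had an LFC of 0.46 (adjusted p 0.0321) and Tyk2, picked out after its values were seen, one of 0.40 (adjusted p 0.0473). Only Jak2 among the 4 stayed called with no filter on low counts, without SAS replicate 2, 3 or 6, without ANT replicate 1 or 3, and without both ANT replicates 1 and 3. Of the 8 STAT pathway factors, 2 were higher in SAS and 3 in ANT, with a median LFC of −0.19. Irf9, a DNA-binding factor of the type I interferon pathway, was at 108, 116, 116 and 119 CPM in SAS against 154, 177, 189 and 193 CPM in ANT (LFC −0.64, SE 0.10, adjusted p 0.000583). Stat5a and Stat5b, which act below the interleukin-2 receptor, were higher, at LFCs of 1.07 and 0.47. Stat3, the interleukin-6 factor, had an LFC of −0.0022 (SE 0.16, adjusted p 0.994) and Stat4, the interleukin-12 factor, one of −0.39 (SE 0.16, adjusted p 0.0878), and neither passed the test.

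Of 14 measured inhibitors of these pathways, 4 were higher in SAS, 3 were lower in SAS and 7 were not called. Over all genes tested, 37.4% were called. Socs3, the feedback inhibitor that binds gp130, fell furthest, with 12.0, 17.99, 13.2 and 25.7 CPM in SAS against 139, 145, 201 and 187 CPM in ANT. All SAS libraries lay far below ANT, with an LFC of −3.29 (SE 0.25, adjusted p 4.96e-06). Usp18, which restrains IFNAR2 signalling, was lower in SAS by the same test (−1.74, adjusted p 4.04e-05), while Socs5 was higher (1.75, adjusted p 1.45e-06). Of 11 members of the MyD88 pathway below the interleukin-18 receptor, 1 was higher in SAS, 2 were lower and 8 were not called. Irak2, a kinase of that pathway, was at 40.1 ± 0.940 CPM in SAS against 19.0 ± 1.62 CPM in ANT (LFC 1.07), and Irak3, its inhibitory relative, at 1.71 ± 0.631 CPM in SAS against 6.02 ± 1.19 CPM in ANT (LFC −1.82). Tab1 was called lower in SAS (LFC −0.44, adjusted p 0.0305). That call was lost under scaling by library totals, without SAS replicate 1, 3 or 6, and without ANT replicate 1, 3 or both, with adjusted p between 0.0602 and 0.178.

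Genes that respond to the cytokines were read the same way, beside 19.8% of all genes tested called higher in SAS and 17.7% lower. Of 29 measured type I interferon response genes, edgeR called 0 higher in SAS (also 0 by DESeq2, by limma-voom and at an unadjusted p under 0.05) and 21 lower, with a median LFC of −0.88 against −0.0032 over all genes tested. Oasl2 and Ifit2, antiviral genes, were at 7.15 ± 1.09 and 42.1 ± 2.49 CPM in SAS, against 32.8 ± 3.88 and 136 ± 17.7 CPM in ANT. Of 23 measured interferon gamma response genes, many of which also respond to type I interferon, 3 were higher in SAS and 16 lower, with a median of −0.93. Igtp and Gbp7, interferon-induced GTPases, had LFCs of −1.70 and −1.95, while Irf8 and Cd274 rose, at 3.47 and 1.62. The third gene that rose, Cxcl10, was picked out after its values were seen and stood at 1.62 (adjusted p 0.0326) with overlapping clones. The count of genes higher in SAS fell to 2, without Cxcl10, when SAS replicate 3 or 6 or ANT replicate 1, 3 or 5 was left out, without both ANT replicates 1 and 3, and with a filter of 1 CPM in 4 libraries. Of 10 measured interleukin-6 or STAT3 response genes, 4 were higher in SAS and 3 lower, with Bcl6 at 2.27 and with Socs3 and Rora at −3.29 and −0.51. Rora lost its call without ANT replicates 1 and 3 (LFC −0.44, adjusted p 0.0676). Il21 was called higher at 4.13 on 103 counts in SAS and 5 in ANT, 4 of the 5 in ANT replicate 1, and without that library its LFC was 5.70. Il21 passed the filter on low counts through SAS. It was not tested under the filter of 1 CPM in 4 libraries, where 3 genes of this list were higher in SAS. Of 10 measured interleukin-12 or interleukin-18 response genes, 9 were higher in SAS and 1 lower. Tbx21, Ccl4, Ifng and Ccl5, picked out after their values were seen, had 4, 6, 7 and 13 counts over the ANT libraries and passed the filter on low counts through SAS. With a filter of 1 CPM in 4 libraries, 6 genes were higher in SAS. Of these, Tbx21 and Eomes were below 1 CPM in every ANT library, at most 0.110 and 0.862 CPM. They passed that filter, too, only through SAS. Eomes, a T-box factor, was at 155 ± 18.1 CPM in SAS against 0.679 ± 0.160 CPM in ANT, and Il2ra had an LFC of 3.18. Prf1, which encodes perforin, was the member lower in SAS, at 3.69 ± 0.886 CPM in SAS against 35.8 ± 4.03 CPM in ANT.

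**Figure D5:**
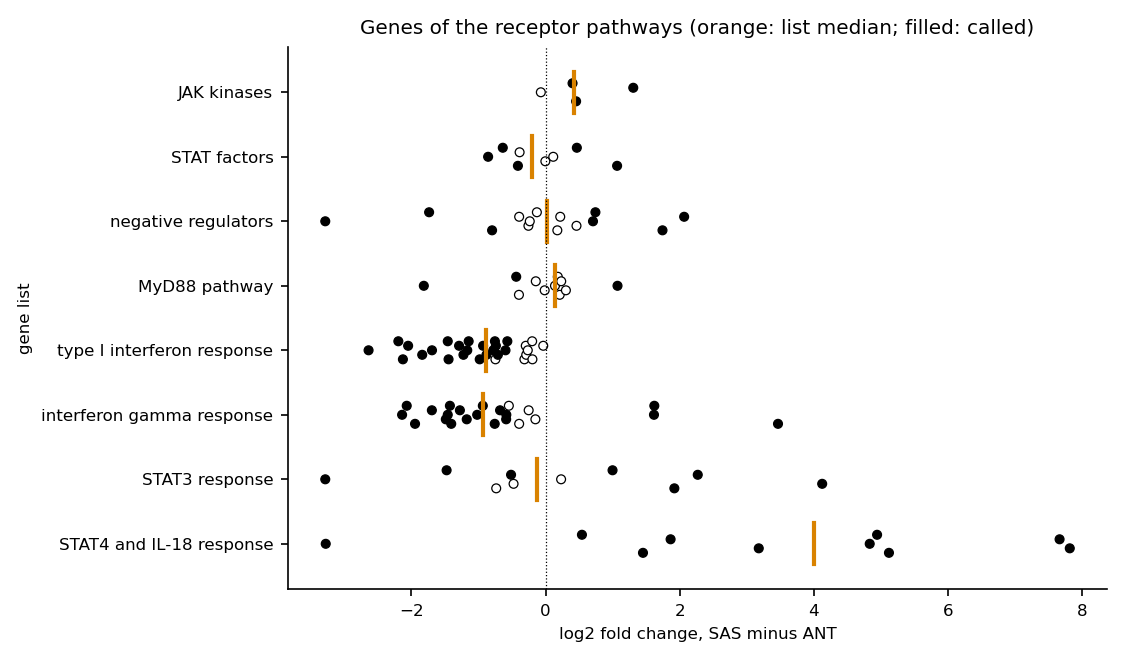
LFC, SAS minus ANT, of every tested gene of 8 lists around the receptors, with filled points called by edgeR and an orange bar at each list median. The interferon lists lie mostly below 0, with medians of −0.88 and −0.93, and the interleukin-12 and interleukin-18 response list mostly above 0. Several genes of that last list passed the filter on low counts through SAS.

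Most of the ligands were absent or near the limit of detection in the sorted cells. Of 10 ligand genes only Ifng passed the filter on low counts, with 271 counts in SAS and 7 in ANT (LFC 5.12, SE 0.85, adjusted p 0.000944, and 5.83 without ANT replicate 5), and 4 had 0 counts in all 8 libraries. Il18 had 13 counts in SAS and 3 in ANT. The proteases Adam10 and Adam17, known to shed the interleukin-6 receptor, and Il18bp, a soluble decoy of interleukin-18, were measured, and edgeR called 0 of the 3, with 0 at an unadjusted p under 0.05 and 0 by DESeq2 or limma-voom. With the replicate number as a block, or without ANT replicates 4 and 5, 1 of the 3 was higher in SAS.

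Receptors of the same families were counted for comparison, beside the 37.4% of all genes tested that were called. Of 2 measured class I relatives, edgeR called 0, as did DESeq2 and limma-voom, with 0 at an unadjusted p under 0.05. Of 3 measured class II relatives, 1 was called, Il10ra, the ligand-binding interleukin-10 chain, at 113, 108, 80.6 and 86.1 CPM in SAS and 17.2, 14.4, 9.34 and 8.86 CPM in ANT (LFC 2.96, SE 0.23, adjusted p 5.62e-06). Of 4 measured interleukin-1 family relatives, Il1r2 was higher in SAS on few counts (54 in SAS, 4 in ANT, LFC 3.50) and Il1rl2, a neighbour of Il18r1 on chromosome 1, was lower (11.3 ± 2.21 CPM in SAS, 28.6 ± 8.65 CPM in ANT, LFC −1.34). Il1r2 passed the filter on low counts through SAS. It was not tested under a filter of 1 CPM in 4 libraries, where 0 of these relatives were higher in SAS. Il1rl1, which lies between Il1rl2 and Il18r1 and encodes the interleukin-33 receptor, was not tested, with 20 counts over the SAS libraries against 1 over ANT. Of 7 measured receptor genes of the common gamma chain family, 2 were higher in SAS, 2 lower and 3 not called. Il2rb, at 281 ± 23.8 CPM in SAS against 3.12 ± 1.05 CPM in ANT, and Il7r, at 86.6 ± 19.8 CPM in SAS against 544 ± 295 CPM in ANT, changed most in each direction. Il2rg, the common chain itself, was at 280 ± 26.5 CPM in SAS against 346 ± 35.7 CPM in ANT (adjusted p 0.0527) and did not pass. No test compared the families with each other.

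Markers of other cells were set beside these values, since Il18r1 and Ifngr1 are also expressed by cytotoxic and natural killer cells. The summed level of 2 CD8 T cell markers was 1.99 to 4.49 CPM in SAS and 14.1 to 66.8 CPM in ANT, where Cd8b1 was called lower in SAS (LFC −3.80) and Cd8a was not called. Most of the ANT sum was Cd8b1 (33.6 ± 21.1 CPM), with Cd8a at 2.56 ± 1.91 CPM. Among ANT libraries this sum had the same order as Ifngr1, highest in replicate 3 and lowest in replicate 5. Il18r1 did not have that order: it was also lowest in replicate 5 but highest in replicate 1, at 142 CPM against 129 CPM in replicate 3. The sum, Ifngr1 and Il18r1 were each higher in ANT replicates 1 and 3 than in replicates 4 and 5. An order of so few libraries, noticed in the data, is no test. ANT replicate 5 had a sum of 14.1 CPM, above every SAS library, with Ifngr1 at 134 CPM and Il18r1 at 93.3 CPM. The summed level of 8 natural killer cell markers went the other way, 24.0 to 45.5 CPM in SAS and 2.27 to 3.48 CPM in ANT. Most of that sum was Nkg7 (35.7 ± 9.36 CPM in SAS), while Ncr1 and Klra8, defining receptors of natural killer cells, had 0 counts in all libraries. Of the 3 natural killer markers tested, Nkg7 and Klrb1c (96 counts in SAS, 4 in ANT) were called higher in SAS. Gzma was called lower (0.329 ± 0.209 CPM in SAS, 2.05 ± 0.205 CPM in ANT, LFC −2.61). Each of the 3 passed the filter on low counts through the clone where it is higher. The summed level of 8 B cell markers was 124 to 184 CPM in SAS and 639 to 689 CPM in ANT, nearly all of it from Ighm. Markers of monocytes and macrophages summed to at most 9.01 CPM in SAS against 6.49 CPM in ANT, with Itgam called higher in SAS (LFC 1.95) and Cd68 lower (LFC −0.73). Dendritic cell markers were scarce in both clones, with sums of 0.739 to 1.26 CPM in SAS and 0.216 to 0.515 CPM in ANT. Sums of plasma cell, neutrophil, erythroid, platelet and stromal markers overlapped between the clones. Within them the plasma cell marker Prdm1 (0.994 ± 0.391 CPM in SAS, 10.5 ± 2.12 CPM in ANT, LFC −3.40) and the platelet marker Itga2b (LFC −0.67) were called lower in SAS. The stromal marker Col1a1 was called higher on few counts (84 in SAS, 15 in ANT). Most of the stromal sum was Pecam1, which was not called. The part of other cells in the receptor differences was not tested.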

How the data were processed

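The deposited table held whole-number raw counts, a column for each of 8 libraries. The submitters' processing notes name STAR, featureCounts and mm10; versions, annotation, strand setting and multi-mapping rules are not given in the sources used here. Libraries were strand-specific mRNA libraries, per the labels' protocols, and groups came from the sample titles. IDs were matched without version suffix to GENCODE M21 (GRCm38, mm10), with 38872 matched and 184 not.

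Differences were tested in edgeR 4.0.16 (R 4.3.3) across all 8 libraries: default low-count filter (12619 genes kept), TMM scaling, robust quasi-likelihood fit, no covariates, Benjamini-Hochberg adjustment over all genes tested. SEs were computed as the size of the log2 fold change over the root of F. The depth of 27600959 to 31810799 counts leaves genes such as Il18rap with 20 to 100 counts a library. Alternatives were other scalings and filters, DESeq2 1.42.0, limma-voom (limma 3.58.1), a replicate block and libraries left out.

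The receptor genes and all lists were chosen with earlier results of these data known. Named genes are all receptor genes and, per list, up to 2 called genes with the smallest p in each direction. The receptor genes' nearest profiles were named as well. Others were picked after their values were seen.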

Additional observations from a re-analysis of the deposited data

Results flagged for a closer look

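Within each clone, the gap between the highest or lowest library and its nearest neighbour was set against the range of the 4 libraries, with Dixon's 95% critical value. This was done for 100 groups of 4 libraries, over the receptor genes, their ratios and the named genes, and 5 were marked, where chance marks about 1 in 20. SAS replicate 2 stood apart in Il18rap, at 2.03 CPM, where SAS replicates 1, 3 and 6 spanned 0.643 to 0.794 CPM, and was also the SAS library with the most Il18r1, at 21.7 CPM. SAS replicate 1 stood apart in Ifngr1, at 85.8 CPM against 63.1 to 66.4 CPM. Jak2 was lowest in SAS replicate 2, at 413 CPM, Rora in ANT replicate 4, at 13.3 CPM, and Stat5a in ANT replicate 1, at 77.1 CPM.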

How the results depend on the processing

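Over 18 alternatives, 9 of the 10 receptor genes kept their direction and their side of the threshold, and Il18rap kept its direction, with log2 fold changes of −1.89 to −1.13 when single libraries were left out and −0.98 (adjusted p 0.146) without ANT replicates 1 and 3. Il18r1 ranged from −3.48 to −2.81, and the number of receptor genes lower in SAS was 5 or 6. The 5 chain ratios kept direction over 11 alternatives each. In those with a test they also kept their side of the threshold, by the permutation p before adjustment. Where a ratio separated the clones without overlap, leaving a library out keeps them apart. Its permutation p then stays at 0.0286, so these settings could not lose a call. The Janus kinases higher in SAS numbered 1 to 3, and the MyD88 pathway genes 1 to 4 higher and 1 to 3 lower in SAS, with 4 and 1 when scaled by library totals. Over all genes, scaling by library totals alone moved the median by 0.0977 and gave a share of calls higher in SAS of 64.8%, against 52.8% with TMM. Of 645 comparisons of 36 named genes, 18 lost the call and 0 changed direction. Replicate numbers 1 and 3 occur in both clones, and the labels do not say whether they mark pairs. The correlation r across genes was 0.293 for number 1 and −0.121 for number 3, and as high as 0.306 for SAS replicate 1 with ANT replicate 3. So few shared numbers cannot settle whether libraries are paired. With a replicate block, which takes the difference from numbers 1 and 3 alone, Il18r1 was at −3.48, Il18rap at −2.10, and no receptor gene changed direction. That fit, 1 of the 18 alternatives, leaves almost nothing to estimate the spread between replicates. Its adjusted p-values therefore say little, and a call kept under it is no support. Low counts limit the precision of Il18rap and Il12rb2.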

Other observations

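The genes whose profile over the 8 libraries was most like that of a receptor gene were listed by the root mean square difference of centred log2 CPM, among 11176 protein-coding genes. For Il18r1 they were Car2 (0.225), Lair1 (0.26) and Ifit1bl1 (0.267), for Ifngr1 the interferon-induced gene Rtp4 (0.102), Epsti1 (0.138) and the selectin ligand gene Selplg (0.145), and for Il6ra the integrin-associated protein gene Cd47 (0.0788), Mettl9 (0.104) and Flot2 (0.109). For Il12rb1 they were the transcription factor gene Tox (0.129), St6galnac4 (0.141) and Rnf144a (0.145), and for Il6st Tmem131l (0.0728), the Polycomb gene Bmi1 (0.0914) and Ntmt1 (0.0916). The nearest were Gm17334 (0.197), Rassf3 and Klhl5 for Il12rb2, Enpp5 (0.238), F2rl3 and Mroh8 for Il18rap, Gm20605 (0.104), Sh3gl1 and Tjp3 for Ifngr2, and Csrnp2 (0.0397), Atp9b and Zdhhc21 for Ifnar2. Because the clone difference makes up most of each profile, the measure mainly finds genes with a like fold change.

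Within ANT, replicates 4 and 5 stood apart from replicates 1 and 3 in several receptor genes. Il6ra averaged 349 CPM in replicates 4 and 5 and 255 CPM in replicates 1 and 3, while Ifngr1 averaged 162 and 240 CPM, Il18r1 97.6 and 136 CPM and Il6st 432 and 529 CPM. Ifnar1 averaged 232 and 240 CPM. These pairs were noticed in the data, and no label sets them apart.

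Around Ifnar2, Ifnar1 and Ifngr2 on chromosome 16, 8 other listed neighbours were measured. Gart, which lies beyond Ifngr2 and encodes an enzyme of purine synthesis, was higher in SAS by a log2 fold change of 0.33 (adjusted p 0.0113), a call lost with no filter on low counts (0.0569) and with the replicate block (0.0722). Dnajc28 (−1.04, lost without ANT replicates 1 and 3 at adjusted p 0.0747) and Donson (−0.81), a replication factor gene, were lower in SAS, and 5 of the 8 were not called. Over all genes tested, 37.4% were called.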
